A study of Mus musculus with 10 samples.

Results

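Genes of the sine oculis homeobox (Six-family), Eya and Dach families were followed in the gastrocnemius (GAS), a predominantly fast calf muscle, of diet-induced obese (DIO) mice. The members were listed by symbol as Six2, Six4, Six5, Eya1, Eya2, Eya3, Eya4, Dach1 and Dach2, which are 9 of the 21098 genes in the count table. Six3 and Six6 are given only for comparison. Wild-type male mice, labelled C57BL/6J and given as C57BL/6JBomTac in the study's methods, were put on a high fat diet at 9 weeks of age and kept on it for 9 weeks, and then, still on the diet, received either saline (CTRL) or 10 mg/kg of the anti-miR-22 antisense oligonucleotide (ASO, RES-010) under the skin once a week for 14 weeks. The series gives their age at the end as 30 weeks, which is less than these times add up to. The ASO blocks the microRNA miR-22, and the comparison asks what its inhibition does to the transcripts of obese muscle. Polyadenylated RNA of whole muscle was sequenced in 5 CTRL and 5 ASO libraries. All mice were obese and none received an oligonucleotide of another sequence, so inhibition of miR-22 and an effect of oligonucleotide treatment as such cannot be told apart. The labels number the libraries and do not say in words that each came from its own mouse, so p-values measure the spread between libraries.

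Six-family proteins are homeodomain transcription factors that bind MEF3 elements in muscle promoters. Eya proteins do not bind DNA themselves, are brought to it by Six-family proteins as coactivators, and carry a phosphatase domain, while Dach proteins are relatives of Ski and Sno that bring corepressors to the same complexes. In muscle, Six-family proteins with Eya partners are known for driving myogenic genes and the fast, glycolytic fiber program, and Dach2 is known as a repressor of Myog that links nerve activity to acetylcholine receptor genes.

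Because the ASO is directed at miR-22, the annotated 3′UTRs of the genes were searched for matches to its seed, bases 2 to 8 of the mature microRNA, which are in capitals in the RefSeq sequence, placed at chr11:75354598-75354619 (+ strand, GRCm39).
mmu-miR-22-3p: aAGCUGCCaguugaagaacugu
The complement sought was GGCAGCT, on the strand of the transcript only. Of the 9 members, Six5 alone held a match, with 2 of them 30 bases apart on chromosome 7 (+ strand). Both lie in the same 3′UTR, and how many of the 5 Six5 transcripts with a 3′UTR hold them was not counted. They are shown with the match in capitals because no other member's 3′UTR holds one.
Six5 first match, chr7:18830815-18830844: ctccagctgttGGCAGCTgggccaggcagt
Six5 second match, chr7:18830845-18830874: cctgtgaaggtGGCAGCTgcagcggggcct
Of the 7813 genes tested for a difference between the groups, 40.2% held a match. Among tested genes with a 3′UTR length within 20% of its own, the share was 32.5% for Six5, 36.9% for Eya1, 34.2% for Eya4, 47.4% for Dach2 and 62.8% for Six4. A missing match says only that these 7 letters are not in the annotated 3′UTR.

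The table counts read pairs on segments of at most 500 bp at the 3′ ends of annotated 3′UTRs, and a gene's level is the sum of its segments. Levels are given as CPM, counts brought to a common library total after scaling by edgeR's TMM method, and the totals ran from 1606909 to 2632560 counts. Every ASO library was deeper than every CTRL library. The libraries also differed in where along 3′UTRs their reads fell. Over 1575 genes with several segments, the median log2 ratio of distal counts to counts at least 1000 bp upstream was 1.18 to 1.69 in the ASO libraries and −0.44 to 0.49 in the CTRL libraries, lowest in CTRL4 and CTRL5. The members were therefore also read by segment, and without CTRL4 and CTRL5, an omission chosen after seeing the data. Other genes named below were read as gene sums only, so the difference along 3′UTRs was not examined for them.

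Of the 9 members, 6 had enough counts to be tested. Eya1, Six4 and Dach2 were lower with the ASO past an adjusted p of 0.05 in edgeR's quasi-likelihood F test, adjusted by the Benjamini-Hochberg method over 7813 genes, and none was higher. None was higher at an unadjusted p of 0.05 either, nor with DESeq2 or limma-voom, which called 3 members lower each. Over all genes tested, 29.2% passed in either direction, 17.4% as lower and 11.8% as higher, which was 1363 lower and 920 higher genes. The split moved with the scaling, to 1819 lower and 528 higher with total counts and to 1206 lower and 1262 higher with upper-quartile scaling. Beside these backgrounds, 3 of the 6 members passed in the main fit, 4 with total counts and 2 with upper-quartile scaling. The median log2 fold change of the 6 members was −0.54, beside −0.03 over all genes tested, and total counts moved the latter to −0.21. On the most distal countable segment only, 5 members could be fitted. Their values were −1.38 (Eya1), −0.19 (Six4), 0.19 (Six5), 0.30 (Eya4) and 1.87 (Six2), so the lower median holds for gene sums only. Eya1 and Dach2, 2 of the 6, had no overlap between the groups and were lower with the ASO, as were 13.4% of all genes tested. The plot of CPM by library shows the 6 genes.

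**Figure D1:**
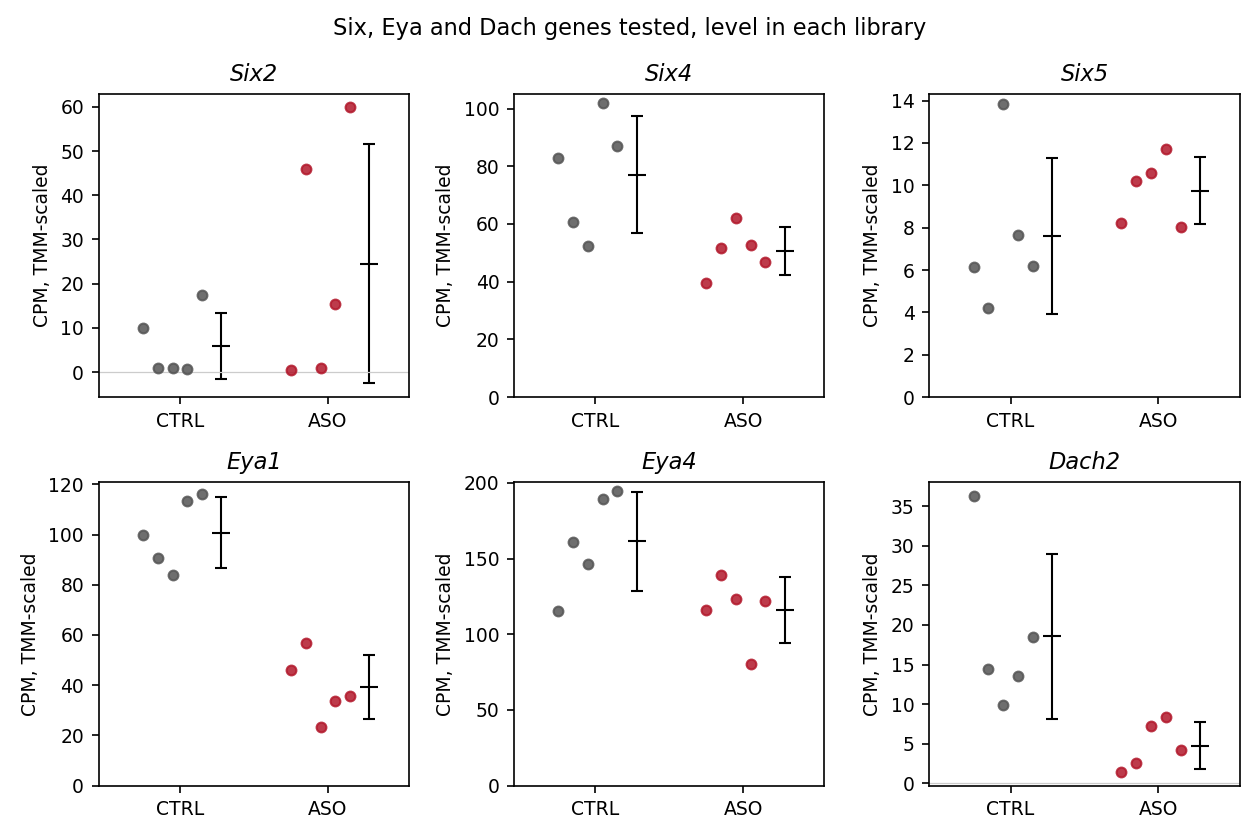
Level of each tested gene in CPM (vertical axis, from 0) in the 5 CTRL and 5 ASO libraries (points), with the mean and SD beside them. The points of Eya1 and Dach2 do not overlap between the groups, while those of Six2 are spread widely within both.

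The levels of the genes were compared per kb of counted sequence, since genes differ in how many bases can receive a count. In CTRL muscle, Eya1 was at 118 ± 16.4 CPM per kb (SD, n = 5), Eya4 at 108 ± 21.8 and Six4 at 77.0 ± 20.3. The ranges of Eya1, Eya4 and Six4 overlapped one another over the libraries. A lower group followed without overlap with these, with Six5 at 15.2 ± 7.39, Six2 at 11.9 ± 15.0 and Dach2 at 10.3 ± 5.77 CPM per kb, whose order is within their spread. With the ASO, the means were 77.5 CPM per kb for Eya4, 50.6 for Six4, 49.0 ± 54.1 for Six2, 45.8 ± 14.9 for Eya1, 19.5 for Six5 and 2.64 for Dach2. The place of Six2 is within its spread, since its libraries ran from 0.966 to 119.8 CPM per kb.

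Six4 is a Six-family factor of muscle progenitors and fast fibers. Its level was 83.0, 60.6, 52.4, 102 and 87.1 CPM in CTRL1 to CTRL5 and 39.6, 51.8, 62.2, 52.6 and 46.7 CPM in ASO1 to ASO5. CTRL2 and CTRL3 lay within the ASO range, so the groups overlapped. The log2 fold change (ASO against CTRL) was −0.60 ± 0.19 (SE, edgeR adjusted p = 0.034). This call was lost in edgeR without CTRL4 (adjusted p = 0.0937), CTRL1 (0.0628), CTRL5 (0.0750), ASO1 (0.0756) or ASO5 (0.0712), and without both CTRL4 and CTRL5 the log2 fold change was −0.37 (adjusted p = 0.238).

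The 2 counted segments of Six4 behaved differently. The distal segment (chr12:73146383-73146882, − strand, GRCm39), which is the most distal one and holds the poly(A) signal AATAAA 17 bp from its end, was at 48.9 ± 12.4 CPM (SD, n = 5) in CTRL and 49.4 ± 9.11 CPM with the ASO. Its log2 fold change was 0.01, with a 95% interval of −0.41 to 0.44 and an edgeR adjusted p of 0.959 over 10652 segments. The upstream segment, 3832 bp away (chr12:73150215-73150714), held 29, 27, 32, 84 and 84 counts in CTRL1 to CTRL5 and 3, 7, 5, 7 and 5 counts in ASO1 to ASO5. It did not overlap between the groups and fell by 3.46 on the log2 scale (edgeR adjusted p = 1.87e-04), in a background of 24.7% of all segments that passed as lower. The lower sum of Six4 was thus a lower count on the upstream segment, which holds neither AATAAA nor ATTAAA in its last 50 bp. Without CTRL4 and CTRL5 the upstream segment fell by 2.49 on the log2 scale (edgeR adjusted p = 6.25e-04).

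Six5, a Six-family protein encoded next to the Dmpk locus and the only member with a seed match, was a gene of low level. It was at 6.13, 4.20, 13.8, 7.67 and 6.18 CPM in CTRL1 to CTRL5 and 8.21, 10.2, 10.6, 11.7 and 8.02 CPM in ASO1 to ASO5. CTRL3 was the highest of all 10 libraries, and the other 4 CTRL libraries were below every ASO library. The log2 fold change was 0.36 ± 0.31 (SE, edgeR adjusted p = 0.408) and passed under no alternative. Its only counted segment (chr7:18831975-18832474, + strand) lies downstream of both matches shown above.

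Six2 is best known from kidney progenitors and developing connective tissue. It was at 9.90, 0.933, 0.988, 0.590 and 17.4 CPM in CTRL1 to CTRL5 and 0.483, 45.9, 0.846, 15.4 and 59.9 CPM in ASO1 to ASO5, which rests on between 1 and 127 counts. In each group some libraries were near 1 CPM and others far above it, namely CTRL1, CTRL5, ASO2, ASO4 and ASO5. The log2 fold change of 2.04 ± 1.06 (SE, edgeR adjusted p = 0.169) passed neither here nor under any alternative, and ran from 1.45 without ASO5 to 2.91 without CTRL5. The SD with the ASO, 27.1 CPM, was larger than the difference between the group means of 5.97 and 24.5 CPM.

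**Figure D2:**
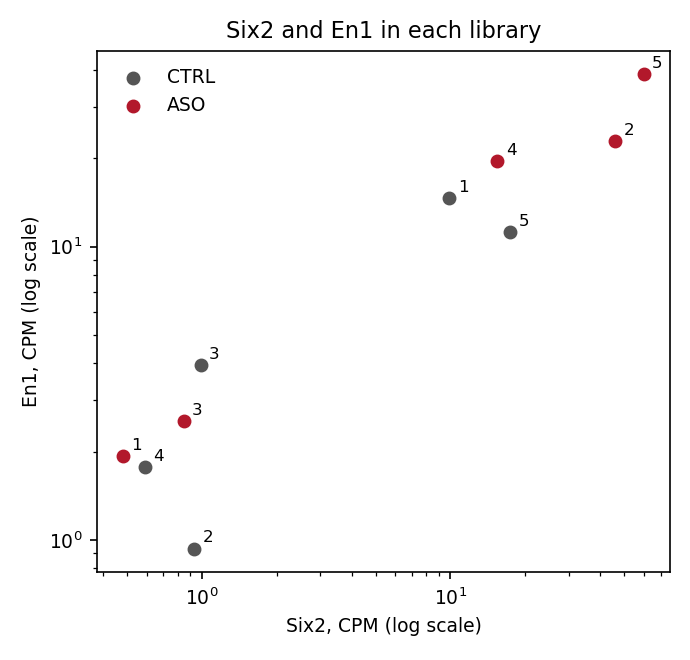
CPM of Six2 (horizontal axis) and of the homeobox gene En1 (vertical axis), both on log scales, in each library, with the library numbers beside the points. CTRL1, CTRL5, ASO2, ASO4 and ASO5 have at least 9.90 CPM of both genes, and the other 5 libraries have at most 3.95 CPM of both.

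Six3 and Six6 had 0 counts in every library, over 1500 and 500 countable bp, and a floor of 3 counts corresponds to 1.25 to 1.77 CPM in these libraries.

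Eya1, a coactivator of Six-family proteins, showed the clearest difference. It was at 99.98, 90.5, 84.0, 113 and 116 CPM in CTRL1 to CTRL5 and at 45.9, 56.9, 23.3, 33.8 and 35.8 CPM in ASO1 to ASO5. Every ASO library was below every CTRL library. The log2 fold change was −1.36 ± 0.21 (SE, edgeR adjusted p = 8.38e-04). On gene sums and the most distal countable segment it passed under every alternative run, from −1.54 to −1.18. It also passed without both CTRL4 and CTRL5 (−1.23, edgeR adjusted p = 0.0139). That segment lies 712 bp upstream of the most distal segment end, so the fall was not tested at the distal end itself.

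Eya1 fell on both of its main segments. The first, 712 bp upstream of the most distal segment end (chr1:14239890-14240389, − strand, GRCm39), ends 34 bp after an AATAAA and was at 67.4 ± 7.80 CPM (SD, n = 5) in CTRL and 29.6 ± 10.6 CPM with the ASO and fell by 1.19 on the log2 scale (edgeR adjusted p = 0.0012). The second, 1689 bp upstream (chr1:14240867-14241139, 273 bp), was at 31.9 ± 10.0 CPM in CTRL and 8.83 ± 1.94 CPM with the ASO and fell by 1.84 (edgeR adjusted p = 1.90e-04). In both segments the groups did not overlap, and both passed without CTRL4 and CTRL5. Over all segments, 24.7% passed as lower, and the share without overlap between the groups was not counted. The 2 outermost segments of the gene share all but 4 bp each and held 16 counts in all, so its most distal end was hardly counted.

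Eya4, which is expressed in muscle and inner ear, was at 115, 161, 147, 189 and 195 CPM in CTRL1 to CTRL5 and 116, 139, 123, 80.6 and 122 CPM in ASO1 to ASO5. CTRL1 lay among the ASO libraries. The sum differed by a log2 fold change of −0.47 ± 0.18 (SE, edgeR adjusted p = 0.0654), and it passed without CTRL1 (−0.57, adjusted p = 0.0280).

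The segments of Eya4 went in opposite directions. Its distal segment (chr10:22978862-22979361, − strand, GRCm39), with an AATAAA 15 bp from its end, had 132, 182, 116, 117 and 110 counts in CTRL1 to CTRL5 and 189, 248, 228, 156 and 219 counts in ASO1 to ASO5. In CPM it was 66.6 ± 10.2 (SD, n = 5) in CTRL and 94.2 ± 16.1 with the ASO and rose by a log2 fold change of 0.50, with a 95% interval of 0.14 to 0.86 (edgeR adjusted p = 0.0287), where 16.0% of all segments passed as higher. ASO4 lay within the CTRL range, and without CTRL4 and CTRL5 the rise no longer passed (0.48, adjusted p = 0.122). The segment 1800 bp upstream (chr10:22980662-22981161) was at 54.0 ± 16.7 CPM in CTRL and 15.7 ± 4.37 CPM with the ASO and fell by 1.77 on the log2 scale (edgeR adjusted p = 2.38e-04). The segment 2506 bp upstream (chr10:22981368-22981867) was at 40.0 ± 16.7 CPM in CTRL and 8.83 ± 3.60 CPM with the ASO and fell by 2.16 (edgeR adjusted p = 4.33e-04). On both upstream segments every ASO library was below every CTRL library, and neither holds a poly(A) signal in its last 50 bp. Refitted without CTRL4 and CTRL5, their log2 fold changes were −1.45 and −1.72 (edgeR adjusted p = 0.0037 and 0.0065). The plot of gene sums and single segments sets these changes side by side.

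**Figure D3:**
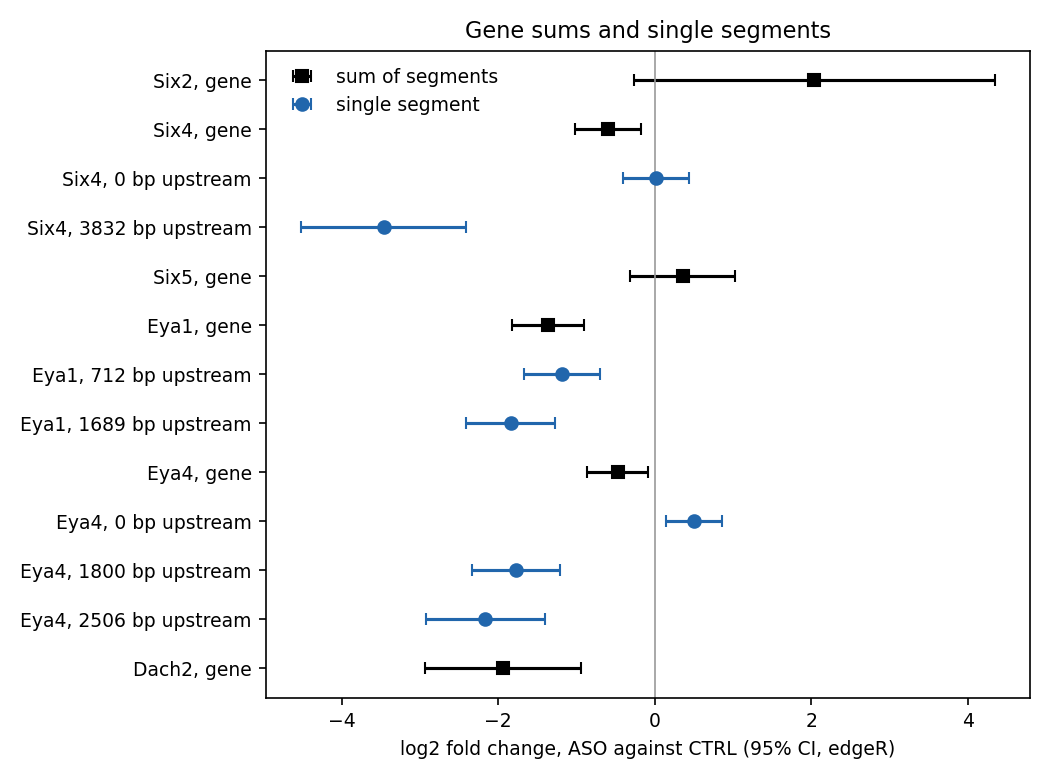
Log2 fold change of ASO against CTRL (horizontal axis) with 95% intervals from edgeR, for gene sums (squares) and for the tested segments of genes with several (circles), named by their distance in bp from the most distal segment end. The distal segments of Six4 and Eya4 lie at 0.01 and 0.50, while their upstream segments lie between −3.46 and −1.77, and both segments of Eya1 are below 0.

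Dach2, the corepressor with a known role in restraining Myog, was at 36.3, 14.5, 9.88, 13.6 and 18.5 CPM in CTRL1 to CTRL5 and 1.45, 2.55, 7.19, 8.35 and 4.24 CPM in ASO1 to ASO5. The highest ASO library was below the lowest CTRL library, and CTRL1 was highest of all. The log2 fold change was −1.94 ± 0.46 (SE, edgeR adjusted p = 0.0082), and it passed under each alternative that kept the gene, from −2.23 to −1.54, and without CTRL4 and CTRL5 (−2.07, adjusted p = 0.0345). The counts behind it are few, between 3 and 20 in the ASO libraries and between 20 and 77 in the CTRL libraries. The alternative with the most distal segment only gave no value for Dach2, so a fall apart from upstream coverage was not tested.

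No segment of Dach2 alone reached the count needed for a test. The 3 that were counted lie on the X chromosome (+ strand, GRCm39), at chrX:112745146-112745590 with 97 counts over the 10 libraries, chrX:112743454-112743953 with 87 and chrX:112741105-112741604 with 55. The first was at 6.10 ± 5.01 CPM (SD, n = 5) in CTRL and 3.10 ± 2.22 CPM with the ASO, and its groups overlapped. The most upstream was at 5.29 ± 3.20 CPM in CTRL and 0.355 ± 0.565 CPM with the ASO, without overlap. The most distal annotated segment held 0 counts in every library.

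**Figure D4:**
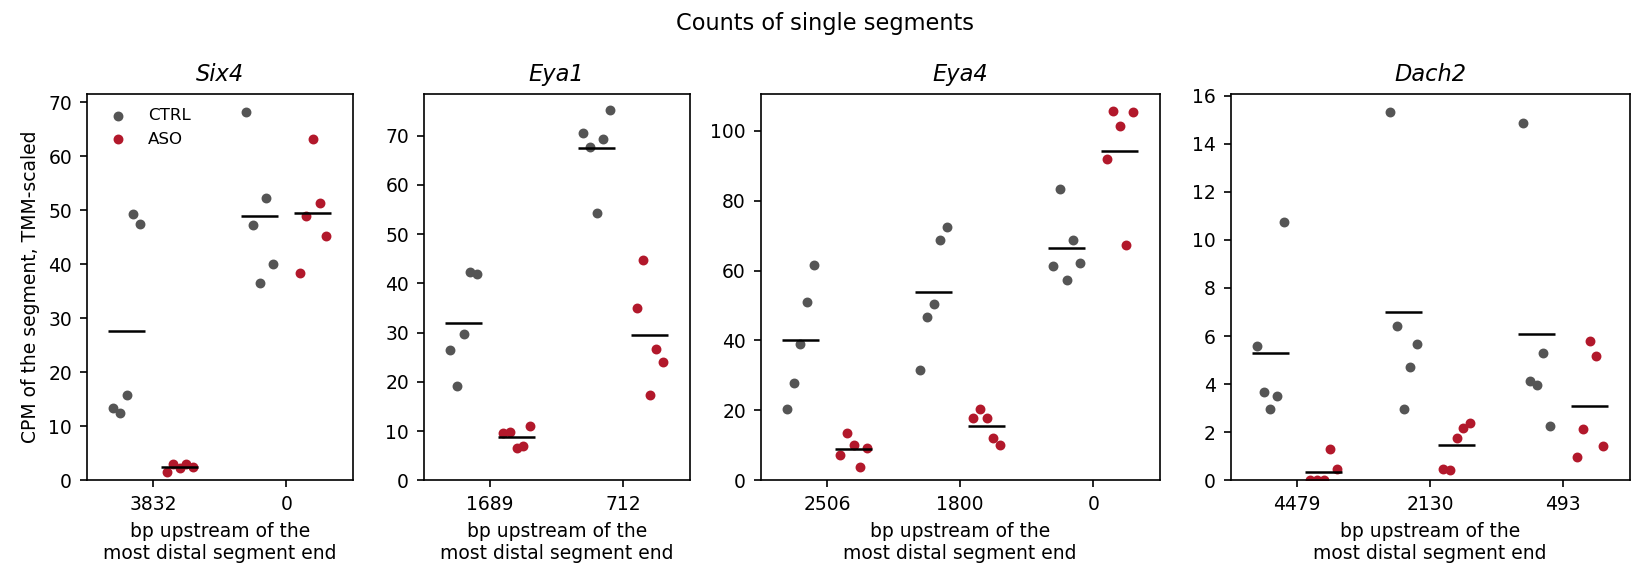
CPM of each segment with at least 50 counts of Six4, Eya1, Eya4 and Dach2 in single CTRL and ASO libraries (points, with the mean as a line), ordered from upstream to distal by distance in bp from the most distal segment end (horizontal axis). Every ASO point lies below every CTRL point except on the 3 segments nearest the distal end of Six4, Eya4 and Dach2, where the groups overlap. Over all segments, 24.7% passed as lower, and the share without overlap was not counted, so the separation is not a trait of these genes alone.

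Whether the segments of a gene changed unequally was tested with edgeR's within-gene test, added after seeing the data. It passed for Eya4 (adjusted p = 6.51e-08) and Six4 (adjusted p = 8.10e-07) and not for Eya1 (adjusted p = 0.0890), and Dach2 had too few counts. Of the 2272 genes with several tested segments, 67.2% passed, and in 2010 of them (88.5%) the most distal segment moved up with the ASO relative to the rest. Six4 and Eya4 were thus 2 genes of a pattern seen across the table. The share of counts on upstream segments was 16.5 to 54.2% in CTRL and 3.40 to 5.74% with the ASO for Six4, and 45.9 to 68.3% and 15.4 to 24.4% for Eya4. For Eya1 the shares overlapped, at 22.2 to 37.5% in CTRL and 19.4 to 31.6% with the ASO. For Dach2 they were 58.4 to 87.9% in CTRL and 16.7 to 66.7% with the ASO, and overlapped through ASO5, which has 9 counts in all.

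**Figure D5:**
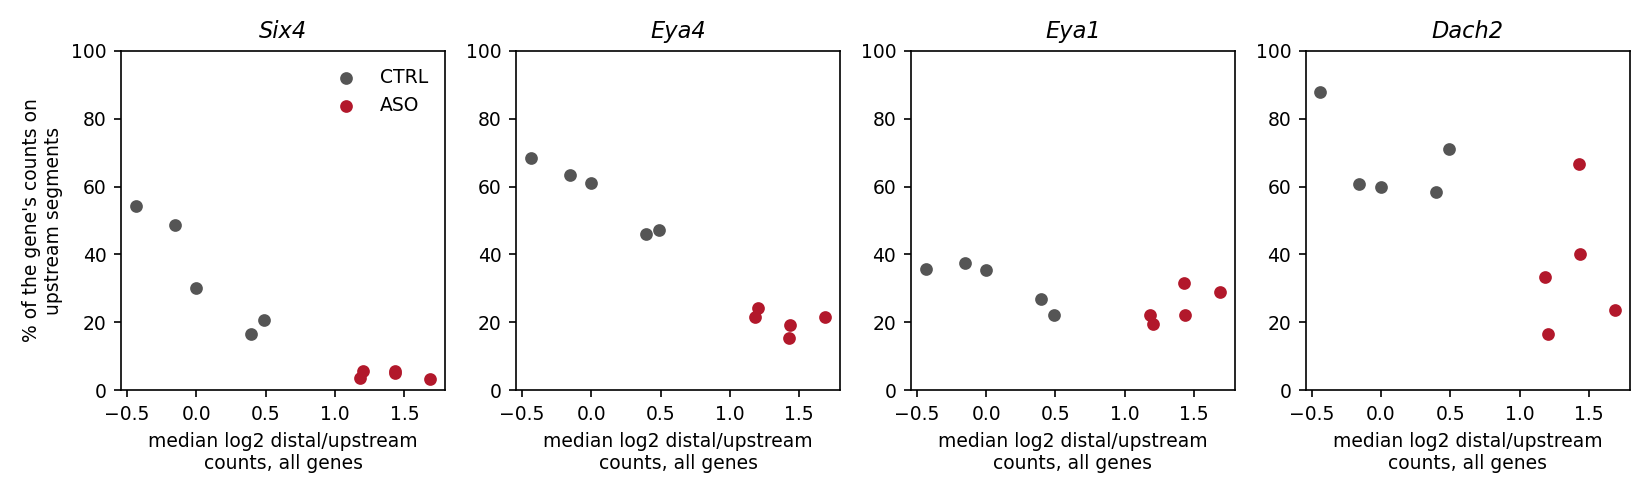
Percent of the counts of Six4, Eya4, Eya1 and Dach2 that lie on upstream segments (vertical axis) against the median log2 ratio of distal to upstream counts over 1575 genes (horizontal axis), 1 point per library. For Six4 and Eya4 the CTRL libraries with the lowest ratio have the highest upstream share (54.2% and 68.3% in CTRL5), and all ASO libraries lie at the lower right.

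Within the CTRL group, the upstream shares of Six4 and Eya4 were highest in CTRL5 and CTRL4, the libraries with the lowest ratio of distal to upstream counts over all genes. The group and this ratio do not overlap in these libraries, so a change in 3′UTR use with the ASO and a difference in read coverage along transcripts cannot be told apart. Across the table, 72.9% of 5722 most distal 500 bp segments with at least 50 counts held AATAAA or ATTAAA in their last 50 bp, beside 36.2% of 4010 such segments that were not the most distal. The distal segments of Six4 and Eya4 and the first segment of Eya1 hold one, and the tested segments upstream of these do not.

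Eya2, Eya3 and Dach1 could not be measured in this table, whatever their level in muscle. Their annotated segments overlap one another almost entirely, and a read pair that falls on several segments is not counted. The 2 segments of Eya2 keep 8 bp each that belong to one alone and held 5 counts in all, 4 in CTRL and 1 with the ASO. Eya3 keeps 3 bp and Dach1 none, and both had 0 counts in every library.

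The genes that act with these proteins were taken as lists, chosen with earlier results of these data known. Of 14 tested cofactors and corepressors, 3 rose and 1 fell, where 11.8% of all genes tested passed as higher and 17.4% as lower. Sobp, named for binding sine oculis proteins, rose by a log2 fold change of 1.08, and H2ax, the histone whose tyrosine is a substrate of the Eya phosphatase, by 0.85. The acetyltransferase Ep300 rose by 0.70, and Smad4, the common Smad, fell by 0.49 on the log2 scale. The median of the list was 0.21.

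Fast fiber and glycolytic genes, among them known targets of Six-family factors, passed as higher in 6 of 11 tested genes and as lower in 1. Their median log2 fold change was 0.79, beside the 11.8% of all genes that passed as higher. Actn3, the fast-fiber actinin, rose by a log2 fold change of 1.79, the fast myosin-binding protein Mybpc2 by 1.54 and the fast calcium pump Atp2a1 by 1.08. Pgam2 rose by 1.00, Ckm by 0.93 and Tnnc2 by 0.79, while the lactate dehydrogenase Ldha fell by 0.91. None of 6 tested slow fiber genes passed in edgeR, 0 had an unadjusted p under 0.05, and 0 passed with DESeq2 or limma-voom, and their median log2 fold change was 1.38.

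Of 9 tested genes of the myogenic network, 2 rose and 2 fell, beside 11.8% higher and 17.4% lower over all genes tested. Myog, the differentiation factor that Dach2 is known to repress, rose by a log2 fold change of 2.16 (edgeR adjusted p = 3.68e-04), and the migration factor Lbx1 rose by 0.74. Met, the receptor for hepatocyte growth factor, fell by 0.72 on the log2 scale, and Mef2c fell by 3.04. Myod1 was 0.88 higher on the log2 scale without passing (edgeR adjusted p = 0.0515). The study, which used DESeq2, reported Myod1 as induced, also by qRT-PCR. Of this list, DESeq2 called 3 higher and 2 lower of 10 tested, and limma-voom 2 higher and 2 lower of 9. The axis that joins histone deacetylases, Dach2 and Myog to the acetylcholine receptor had 13 listed genes, of which 6 were tested. In edgeR 2 passed as higher, beside the same 11.8%, and 0 as lower. DESeq2 tested 8 of them and called 2 higher and 1 lower. The receptor subunit Chrnb1 rose by 1.25 and the deacetylase Hdac5 by 0.79, and Hdac4 (0.52, edgeR adjusted p = 0.143) and Runx1 (0.87, adjusted p = 0.0707) did not pass.

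The muscle held abundant fiber transcripts such as Acta1 and Ckm, but Mb, Mylpf and Tnnt3 were at 0 counts in every library. These have 4, 10 and 0 bp in all that a single segment can count, so, as for Eya3 and Dach1, a count of 0 says nothing of their level. Ttn (1.41 on the log2 scale, edgeR adjusted p = 7.18e-04) and Ckm passed as higher of 3 fiber markers tested. The summed level of 7 muscle fiber markers was 38572 to 75046 CPM in CTRL and 80436 to 117346 CPM with the ASO, without overlap. The summed level of 10 satellite cell markers was 203 to 318 CPM in CTRL and 307 to 536 CPM with the ASO, with Cdh15 and Sdc4 higher past the threshold of 7 tested, Pax7 not past it, and Calcr and Spry1 at 0. For 8 fibroblast and fibro-adipogenic markers it was 404 to 1734 CPM in CTRL and 144 to 622 CPM with the ASO, with Lum and Cd34 lower of 5 tested, and Dcn and Ly6a at 0. These ranges overlapped for satellite cells and fibroblasts, and their part in the results for Eya1, Six4 and Dach2 was not tested. For 6 macrophage markers it was 93.4 to 557 CPM in CTRL and 31.1 to 194 CPM with the ASO, which overlap. Mrc1 was lower of 4 tested in edgeR, 0 of these passed with limma-voom, and Adgre1 and Cd163 were at 0. The sums of endothelial, smooth muscle, Schwann cell and adipocyte markers overlapped between the groups. Of these markers Acta2, a smooth muscle actin, passed as higher (0.96 on the log2 scale, edgeR adjusted p = 0.0388), while 0 smooth muscle markers passed with limma-voom. These marker calls stand beside 11.8% higher and 17.4% lower over all genes tested. Of the markers at 0, Spry1, Dcn and Cd163 have 0 countable bp, Ly6a 1, Adgre1 4 and Calcr 53, so these zeros, like those of Mb, say little of the level. In whole muscle, fewer cells of a type and less RNA per cell cannot be told apart.

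The genes with the most similar profiles over the 10 libraries were sought for the 3 members that passed, by the root mean square difference of log2(CPM + 1) values after centring each gene, over 7738 genes. Nearest to Six4 were Zfp326 (0.153), Ndufs4 (0.173) and Narf (0.179), where the median gene was at 0.569. Nearest to Eya1 were Pdlim5 (0.149), Rnf121 (0.152) and Acp1 (0.157), with the median gene at 0.862. Nearest to Dach2 were Esrrg (0.524), Fgf1 (0.555) and Slf1 (0.559), with the median gene at 1.17, so no gene followed Dach2 as closely as the nearest genes followed Six4 or Eya1. Dach2 had a mean of 23.9 counts per library, beside 131.6 for Six4 and 141.6 for Eya1. The part of counting error in its larger distances was not tested. No member was among the 3 nearest genes of another.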

How the data were processed

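The authors deposited counts of read pairs per 3′UTR segment, not normalized. Reads of stranded mRNA libraries had been trimmed with fastp, aligned to GRCm39 with STAR and counted by featureCounts (Gencode M25), keeping 3′UTRs to their last 500 bp. No strand option is named, so antisense reads cannot be told apart. The table has 52423 segments, of which 52361 were found in GENCODE M39 and summed by gene, and the 62 others held 0.0197% of the counts. Segments with identical coordinates (11523) held 0 counts. The 4 other per-sample columns were not used. Genes were tested in all 10 libraries with edgeR 4.0.16 in R 4.3.3 (TMM, filterByExpr by group, quasi-likelihood test, Benjamini-Hochberg threshold 0.05), and single segments likewise. SDs are over 5 libraries. The floor of 3 counts covers counting error only. Neither miR-22 nor its host gene is counted, so the labels could not be checked against the target. The alternatives were RLE, total-count and upper-quartile scaling, DESeq2 1.42.0 (used by the authors), limma-voom 3.58.1, no filter, a minimum of 10 counts per library, omission of the 20 highest genes, a replicate block, equal depth, the most distal segment only, each segment, and leaving out each library. The procedure was tested on simulated data. The members, lists and tests were chosen with earlier results of these data known. The genes named are the members, Six3, Six6, list members past the threshold (at most 8 a list, by adjusted p) and the 3 nearest profiles of each member that passed. Others are named as examples chosen after their values were seen. One further item is not reported here. Seed matches were sought in all annotated 3′UTRs of a gene. For the most distal segment only, the outermost segment with at least 200 bp belonging to it alone was taken.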

Additional observations from a re-analysis of the deposited data

How the results depend on the processing

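Every alternative gave lower values with the ASO for Eya1 and, where it could be fitted, Dach2, and both passed each time. With the most distal segment alone, 446 genes were higher and 817 lower, 1 member passed instead of 3, Eya4 turned to 0.30 (adjusted p = 0.197) and Six4 was −0.19 (adjusted p = 0.487), and no value could be given for Dach2, nor for Dach2, Six2 and Six5 with at least 10 counts in every library. In the fit of single segments, the distal segments of Eya4 (0.50) and Six4 (0.0145) were on the other side of 0 from their gene sums. Total counts gave 528 higher genes and a passing Eya4 (−0.66, adjusted p = 0.0136), and the filter of at least 10 counts also let Eya4 pass (adjusted p = 0.0452). Six4 did not pass with upper-quartile scaling (adjusted p = 0.0577) or without the filter (0.0535). Without both CTRL4 and CTRL5, chosen after seeing the data, 366 genes were higher and 732 lower, and 2 members passed. Leaving out single libraries gave 692 to 1021 higher and 1127 to 1369 lower genes and 2 to 3 members. With the replicate block, 662 genes were higher and 1172 lower, and Six4 did not pass (−0.58, adjusted p = 0.0829). The numbers share no stated mouse or batch, the correlations of same-numbered libraries ran from −0.43 to 0.16, and no ASO library correlated best with the CTRL library of its number, so the numbers were not taken to pair the libraries. Low counts limit Dach2, Six5 and Six2 most.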

Other observations

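Six2 stood apart from the other members in a spread that did not follow the groups, and its profile was therefore compared with all genes after its values had been seen. The nearest profile was that of En1, a homeobox gene of the ventral limb ectoderm and hindbrain, at a root mean square difference of 0.744 on the log2(CPM + 1) scale over 10 libraries, followed by Hspa1a at 1.38 and Hspa1b at 1.40, with the median gene at 2.07. En1 had 31, 2, 8, 3 and 20 counts in CTRL1 to CTRL5 and 4, 54, 6, 47 and 82 counts in ASO1 to ASO5. The 5 libraries with the highest En1 were those with the highest Six2, namely CTRL1, CTRL5, ASO2, ASO4 and ASO5. Neither gene passed between the groups, En1 with a log2 fold change of 1.38 (edgeR adjusted p = 0.211), and both rest on fewer than 10 counts in the other 5 libraries. The plot of both genes by library is a description of counts, and the source of the shared spread was not tested.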
